A study of Mus musculus with 4 samples.

Results

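Tenomodulin (Tnmd), thrombospondin 4 (Thbs4), scleraxis (Scx), mohawk (Mkx), cartilage oligomeric matrix protein (Comp), fibromodulin (Fmod), keratocan (Kera) and chondroadherin (Chad) are genes that tendon and other dense fibrous tissue are known for. They were chosen by gene symbol, and the set was drawn up because Tnmd and Thbs4 were already known to be low at both coated scaffolds. The values of these 2 genes are therefore a description, and the question was whether the other tendon genes followed. All 8 genes had a probe on the array, and 5 of them, Tnmd, Thbs4, Scx, Mkx and Fmod, had a value on all 4 arrays, of 11842 genes with such values. Comp had a value on 3 arrays, and Kera and Chad had a value on 1 array each.

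The RNA came from host tissue at porous polymer discs that had lain for 7 days under the skin of the back in male C57BL/6 mice aged 8 weeks. There were 3 kinds of scaffold and a single mouse (n = 1) for each: non-coated, coated with collagen, or coated with PMB, a copolymer of 2-methacryloyloxyethyl phosphorylcholine and n-butyl methacrylate that the sample titles call MPC. The study's methods give the discs as polyethylene, while the series title has polystyrene. The scaffold and the thin layer of tissue around it were cut out by laser, so each extract held RNA of mixed cell types, and fewer cells of a type cannot be told apart from less RNA per cell. Each array set 825 ng of RNA from a coated scaffold against the non-coated scaffold, with the coated sample in Cy5 in replicate 1 and in Cy3 in replicate 2. Both arrays of a coating therefore carried identical extracts with the dyes exchanged and count as 1 replicate, and both coatings share the non-coated extract. All values are log2 ratios of coated over non-coated, and ± is the SD of the 2 arrays, which is a technical error and holds no difference between mice. With 1 mouse a group there is no test and no p-value. A gene is called higher or lower where its mean ratio was at least 2-fold, a log2 size of 1, and both its arrays had that sign. From 52.3% to 60.5% of the 43377 probes had a value on an array, and the median ratio of all genes was 0.036 with collagen and 0.022 with PMB.

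In the tendon lineage, Scx, a basic helix-loop-helix factor, marks the progenitors and is needed for force-transmitting tendons, and the homeobox factor Mkx acts later, in the growth of the collagen fibrils. Tnmd is a membrane glycoprotein that Scx induces, and it is known from mature tendon cells and also from fat tissue. Thbs4 and Comp are pentameric thrombospondins of the matrix, and Thbs4 is also made in skeletal and heart muscle. Fmod, Kera and Chad are leucine-rich proteins of the matrix, of which Fmod and Kera bind fibrillar collagen and regulate fibril width. Basic helix-loop-helix factors such as Scx bind the E-box, CANNTG. The bases before the transcription start of the 3 matrix or membrane genes that were lower with collagen are shown for this reason, 250 bases for each gene 5′ to 3′ on the gene's own strand, with any CANNTG in capitals. The sequences are from RefSeq, build GRCm38.p6, which had a promoter entry for 5 of the 8 genes.
Tnmd, chrX:133850758-133851007, plus strand: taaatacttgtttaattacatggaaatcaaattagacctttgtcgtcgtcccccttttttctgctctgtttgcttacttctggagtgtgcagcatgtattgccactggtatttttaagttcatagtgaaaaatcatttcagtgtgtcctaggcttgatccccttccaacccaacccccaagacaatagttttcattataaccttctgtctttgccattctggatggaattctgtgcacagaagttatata
Thbs4, chr13:92794819-92795068, minus strand: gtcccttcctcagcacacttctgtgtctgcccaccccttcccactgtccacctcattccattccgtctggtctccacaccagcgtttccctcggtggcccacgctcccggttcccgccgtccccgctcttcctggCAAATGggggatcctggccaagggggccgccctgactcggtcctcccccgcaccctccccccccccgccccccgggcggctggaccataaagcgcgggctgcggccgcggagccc
Fmod, chr1:134037004-134037253, plus strand: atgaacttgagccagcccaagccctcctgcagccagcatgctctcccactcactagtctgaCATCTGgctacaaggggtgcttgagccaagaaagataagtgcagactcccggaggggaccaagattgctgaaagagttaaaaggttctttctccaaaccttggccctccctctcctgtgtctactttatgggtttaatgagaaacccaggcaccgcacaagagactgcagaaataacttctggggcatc
The Thbs4 window held 1 E-box, which starts 115 bases before the transcription start, and the Fmod window held 1, starting 189 bases before it. The Tnmd window held none. The motif reads alike on both strands, and 66.2% of all 32851 promoter windows of this length held it. A match is a description of the letters and no site of binding.

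Of the 5 tendon genes measured on all arrays, 4 were lower by 2-fold or more with the collagen coating and 1, Mkx, was at least 2-fold higher. At the PMB-coated scaffold Tnmd and Thbs4 were at least 2-fold lower and the other 3 genes did not reach 2-fold. The members' median log2 ratio was -1.15 with collagen and -0.51 with PMB, and without Tnmd and Thbs4 the median of the other 3 was -1.04 and -0.27. Over all 11842 genes, 3.38% were lower and 2.21% higher with collagen, and 1.4% were lower and 0.616% higher with PMB by the same call. The 4 lower genes with collagen and the 2 with PMB include Tnmd and Thbs4, for which the set was made, so those 2 add nothing to either count or median.

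**Figure D1:**
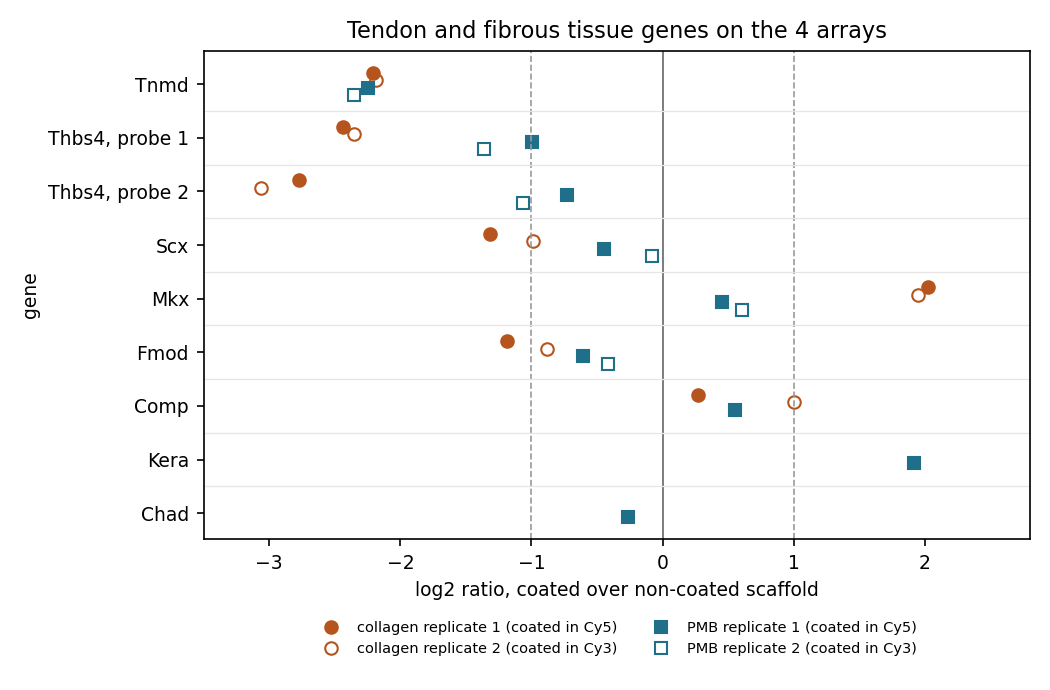
Log2 ratio of coated over non-coated scaffold for every probe of the 8 tendon genes on each array, with circles for collagen, squares for PMB, filled marks for replicate 1 and open marks for replicate 2. Dashed lines mark 2-fold. Tnmd lies between -2.36 and -2.19 on all arrays, and Mkx lies at 1.95 and 2.02 with collagen.

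Tnmd had close to the same low ratio with both coatings. Its log2 ratio was -2.21 and -2.19 on collagen replicates 1 and 2, a mean of -2.20 ± 0.016 (4.59-fold lower). On PMB replicates 1 and 2 it was -2.24 and -2.36, a mean of -2.30 ± 0.080 (4.93-fold lower). The values of the coatings lay within 0.17 of each other, and collagen minus PMB was 0.10 ± 0.095. Among all genes Tnmd ranked 92 from the lowest with collagen and 15 from the lowest with PMB.

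Thbs4 was low with both coatings and lower with collagen. With the mean of its 2 probes, it stood at -2.60 and -2.71 on collagen replicates 1 and 2, a mean of -2.66 ± 0.076 (6.31-fold lower). On PMB replicates 1 and 2 it stood at -0.86 and -1.22, a mean of -1.04 ± 0.25 (2.06-fold lower), so that PMB replicate 1 alone did not reach 2-fold. All arrays of the collagen coating were thus below all arrays of the PMB coating. How many of all genes separate in this way was not counted. The difference of collagen minus PMB was -1.62 ± 0.17, and 3.67% of all genes were called lower in that comparison. The probes of Thbs4 did not overlap with collagen, at -2.43 and -2.35 on the arrays for one and -2.77 and -3.07 for the other, with means of -2.39 ± 0.057 and -2.92 ± 0.21. With PMB their order was turned, at -1.18 ± 0.26 and -0.90 ± 0.24.

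The transcription factor Scx was lower with collagen and near the 2-fold limit. On collagen replicates 1 and 2 its log2 ratio was -1.32 and -0.99, a mean of -1.15 ± 0.23 (2.22-fold lower). On PMB replicates 1 and 2 it was -0.45 and -0.081, a mean of -0.27 ± 0.26. Collagen minus PMB was -0.89 ± 0.030, short of 2-fold.

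Mkx went the other way from the rest of the measured tendon genes. On collagen replicates 1 and 2 its log2 ratio was 2.02 and 1.95, a mean of 1.99 ± 0.056 (3.96-fold higher), which ranked 34 from the highest of all genes. On PMB replicates 1 and 2 it was 0.45 and 0.61, a mean of 0.53 ± 0.11, above 0 on both arrays but below 2-fold. Collagen minus PMB was 1.46 ± 0.17, a 2.75-fold difference, and 2.74% of all genes were called higher in that comparison. Mkx has 1 probe on this array, so no other probe bears on its direction.

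Fmod, the collagen-binding proteoglycan, resembled Scx. On collagen replicates 1 and 2 its log2 ratio was -1.19 and -0.88, a mean of -1.04 ± 0.22 (2.05-fold lower). On PMB replicates 1 and 2 it was -0.61 and -0.41, a mean of -0.51 ± 0.14. All 4 arrays were below 0, and collagen minus PMB was -0.53 ± 0.080. Scx and Fmod, neighbours in the order of the collagen values, differed by less than the SD of either gene. Both calls rest on collagen replicate 1. On replicate 2 alone neither reached 2-fold, and the count of lower members with collagen went from 4 to 2. The count with PMB likewise went from 2 to 1 without PMB replicate 2, since Thbs4 did not reach 2-fold on replicate 1.

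The values of Comp, Kera and Chad were incomplete. Comp, a pentameric thrombospondin like Thbs4, stood at 0.27 and 0.999 on collagen replicates 1 and 2, a mean of 0.64 ± 0.51. On PMB replicate 1 it was at 0.55, with no value on PMB replicate 2. Its 3 values were thus all above 0, on the other side of 0 from Thbs4. Kera, a keratan sulfate proteoglycan of cornea and tendon, had a value only on PMB replicate 1, of 1.92. Chad, which binds collagen and cell-surface integrin, had a value only on the same array, of -0.26. A value from 1 dye orientation holds any dye bias of the probe, so no call was made for Kera and Chad. The paper mentions reliable signals but gives no rule for empty spots, so a missing value was not read as a low level or as any other.

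**Figure D2:**
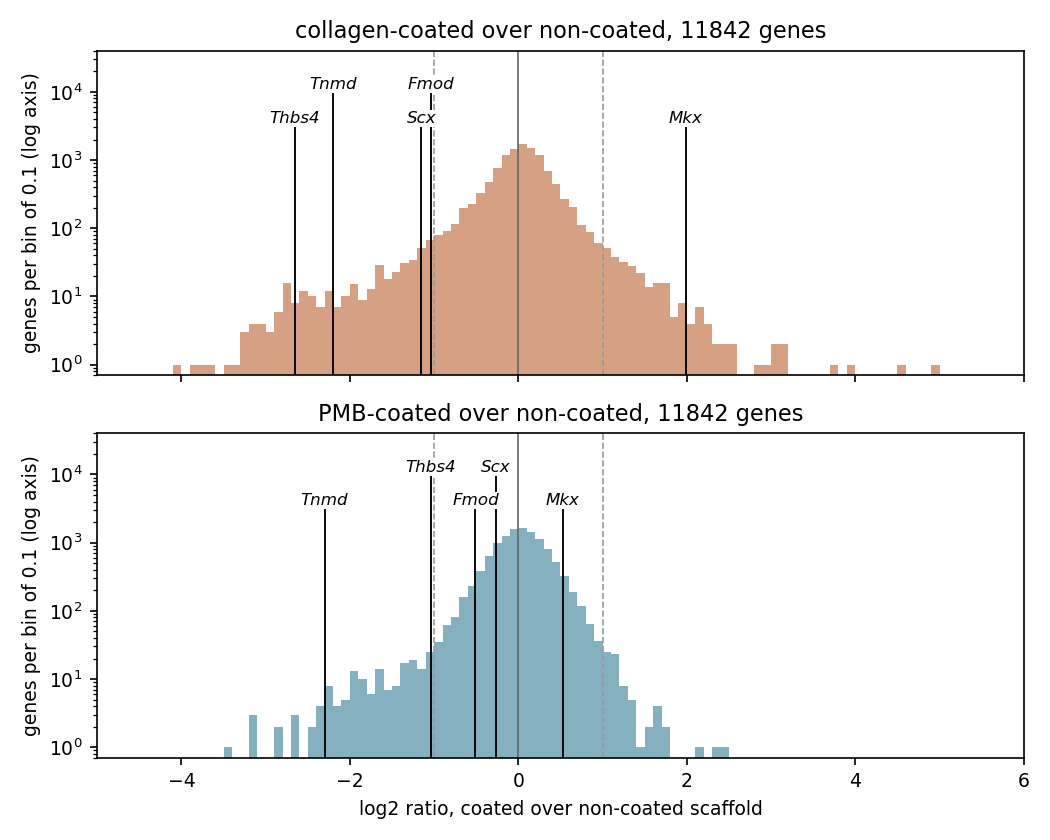
Number of genes per bin of 0.1 in log2 ratio, on a log axis, for collagen (top) and PMB (bottom), with the 5 measured tendon genes marked by lines and dashed lines at 2-fold. With collagen 4 genes lie left of the lower dashed line and Mkx lies right of the upper one. With PMB Tnmd, at -2.30, and Thbs4, at -1.04, lie left of the lower line.

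None of the thrombospondin relatives Thbs1, Thbs2 and Thbs3 reached 2-fold with either coating. With 3.38% of all genes lower with collagen and 1.4% lower with PMB, the lack of a call among 3 genes is unremarkable. Thbs4 itself was picked for its low ratio. Thbs3, a pentamer like Thbs4, was at -0.74 ± 0.11 with collagen and 0.48 ± 0.0035 with PMB, below 0 on both collagen arrays and above 0 on both PMB arrays. The trimeric forms Thbs1 and Thbs2, inhibitors of vessel growth, stood at 0.18 ± 0.30 and -0.069 ± 0.20 with collagen, and their PMB values were -0.53 ± 0.067 and -0.34 ± 0.41.

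Several small leucine-rich proteoglycans, the family of Fmod, lay close to Fmod with collagen and apart from it with PMB. Besides Fmod, 10 of 15 further members of the family had values on all arrays, and 2 of them were at least 2-fold lower with collagen, 1 was higher, and none reached 2-fold with PMB. The median of these 10 was -0.79 with collagen and 0.10 with PMB. Osteomodulin (Omd), a keratan sulfate proteoglycan of bone, was the lowest at -1.62 ± 0.35 with collagen and stood at 0.19 ± 0.17 with PMB. Osteoglycin (Ogn) was at -1.06 ± 0.16 and -0.16 ± 0.14. Just short of 2-fold with collagen were asporin (Aspn), prolargin (Prelp) and lumican (Lum), at -0.996 ± 0.24, -0.99 ± 0.12 and -0.95 ± 0.071, so the count of 2 depends on where the limit is set. Lum, the close relative of Fmod and Kera, had a PMB value of 0.70 ± 0.57, and Aspn had 0.21 ± 0.036.
Decorin (Dcn) and biglycan (Bgn), the most widespread proteoglycans of the family, were near 0 with collagen, at 0.13 ± 0.18 and 0.23 ± 0.047. With PMB they were at 0.41 ± 0.060 and -0.37 ± 0.019. The probes of Bgn disagreed in sign with collagen, at 0.61 and -0.15. Ecm2 and podocan (Podn) were at -0.62 ± 0.076 and -0.47 ± 0.021 with collagen. The high exception was the podocan-like gene Podnl1, at 1.94 ± 0.23 with collagen and 0.24 ± 0.36 with PMB.

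None of the measured relatives of Tnmd, Mkx and Scx was past 2-fold. Only 3 of 5 relatives of Tnmd, 3 of 6 of Mkx and 3 of 7 of Scx had values on all arrays. With 3.38% of all genes lower and 2.21% higher with collagen, the lack of a call among so few genes is unremarkable. Of the genes that share the BRICHOS domain of Tnmd, Itm2a was at 0.16 ± 0.30 with collagen and -0.65 ± 0.27 with PMB, Itm2b at -0.40 ± 0.19 and -0.19 ± 0.088, and Itm2c at 0.50 ± 0.34 and 0.14 ± 0.23. Cnmd, the cartilage relative closest to Tnmd, had no value on all arrays. The Iroquois factors Irx1, Irx2 and Irx3, homeobox relatives of Mkx, lay between -0.38 and -0.14 with collagen. Irx3 had opposite signs on its 2 collagen arrays, with an SD of 0.71 with collagen. Among relatives of Scx, Tcf15 was at -0.16 ± 0.055 with collagen, Twist1 at -0.22 ± 0.58 and Twist2 at 0.27 ± 0.044. Twist2, a factor of dermal fibroblasts, was at 0.82 ± 0.30 with PMB.

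**Figure D3:**
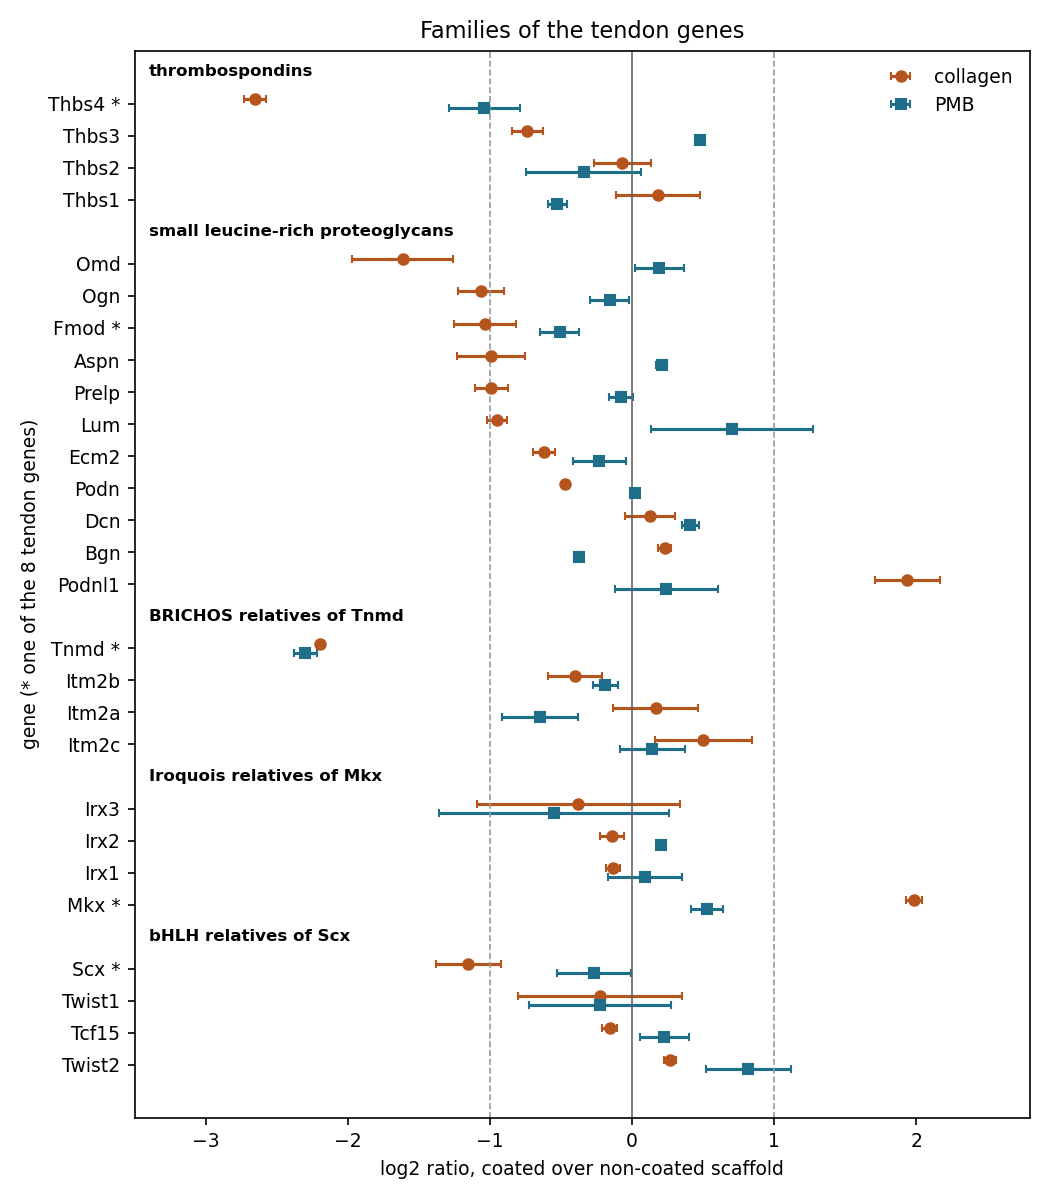
Mean log2 ratio of coated over non-coated scaffold for every measured gene of the families of the tendon genes, with circles for collagen and squares for PMB. Bars are the SD of the 2 arrays of a coating and dashed lines mark 2-fold. Thbs4 at -2.66, Tnmd at -2.20 and Mkx at 1.99 with collagen lie outside the range of their measured relatives. The set was picked because Thbs4 and Tnmd were low, so the place of these genes is no finding.

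Other genes of tendon, ligament and fibrous matrix were mostly within 2-fold. Of 51 such genes, 36 had values on all arrays. The collagen call found 5 of them lower and 1 higher, while the PMB call found 3 lower and none higher. Over all genes, 3.38% were lower and 2.21% higher with collagen, and 1.4% were lower and 0.616% higher with PMB. Genes called lower were thus a larger share of this list than of all genes. The list was drawn up with earlier results of these data known, so that larger share is no finding. The median of the 36 genes was -0.073 with collagen and 0.049 with PMB, beside 0.036 and 0.022 for all genes. The counts of the other gene lists are to be read beside the same shares. The 2 lowest genes with collagen were Cilp, a matrix protein first described in cartilage, at -2.85 ± 0.024, and Cpxm2, a carboxypeptidase-like protein, at -2.07 ± 0.0057. Cpxm2 was equally low with PMB, at -1.996 ± 0.046, as Tnmd was, while Cilp was at -0.85 ± 0.031. Elastin (Eln), the core of elastic fibres, stood at -1.34 ± 0.0092 with collagen but at -0.22 ± 0.10 with PMB. The remaining genes of that count were Ogn and fibulin 7 (Fbln7), the latter at -1.14 ± 0.27 with collagen.
Fbln7, Ccn2 and Tnc were named after their values were seen, to complete these counts. The matrix glycoprotein tenascin C (Tnc), made in developing and injured tendon, was the single gene higher with collagen, at 1.13 ± 0.056, and was at 0.69 ± 0.15 with PMB. Of its 5 probes 3 had values on all arrays. Of these, 1 reached 2-fold with collagen, at 1.53, and the others were at 0.88 and 0.97. Lower with PMB but not with collagen were Col11a1, a chain of a minor fibrillar collagen, and Ccn2, a growth factor induced by load and TGF-beta. Col11a1 stood at -1.60 ± 0.15 with PMB but at 0.018 ± 0.23 with collagen, and Ccn2 was at -1.18 ± 0.087 and 0.031 ± 0.20. The main fibril collagens of tendon, Col1a1, Col1a2 and Col3a1, which were also looked up after the values were seen, lay between -0.094 and 0.25 with collagen and between 0.060 and 0.68 with PMB.

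**Figure D4:**
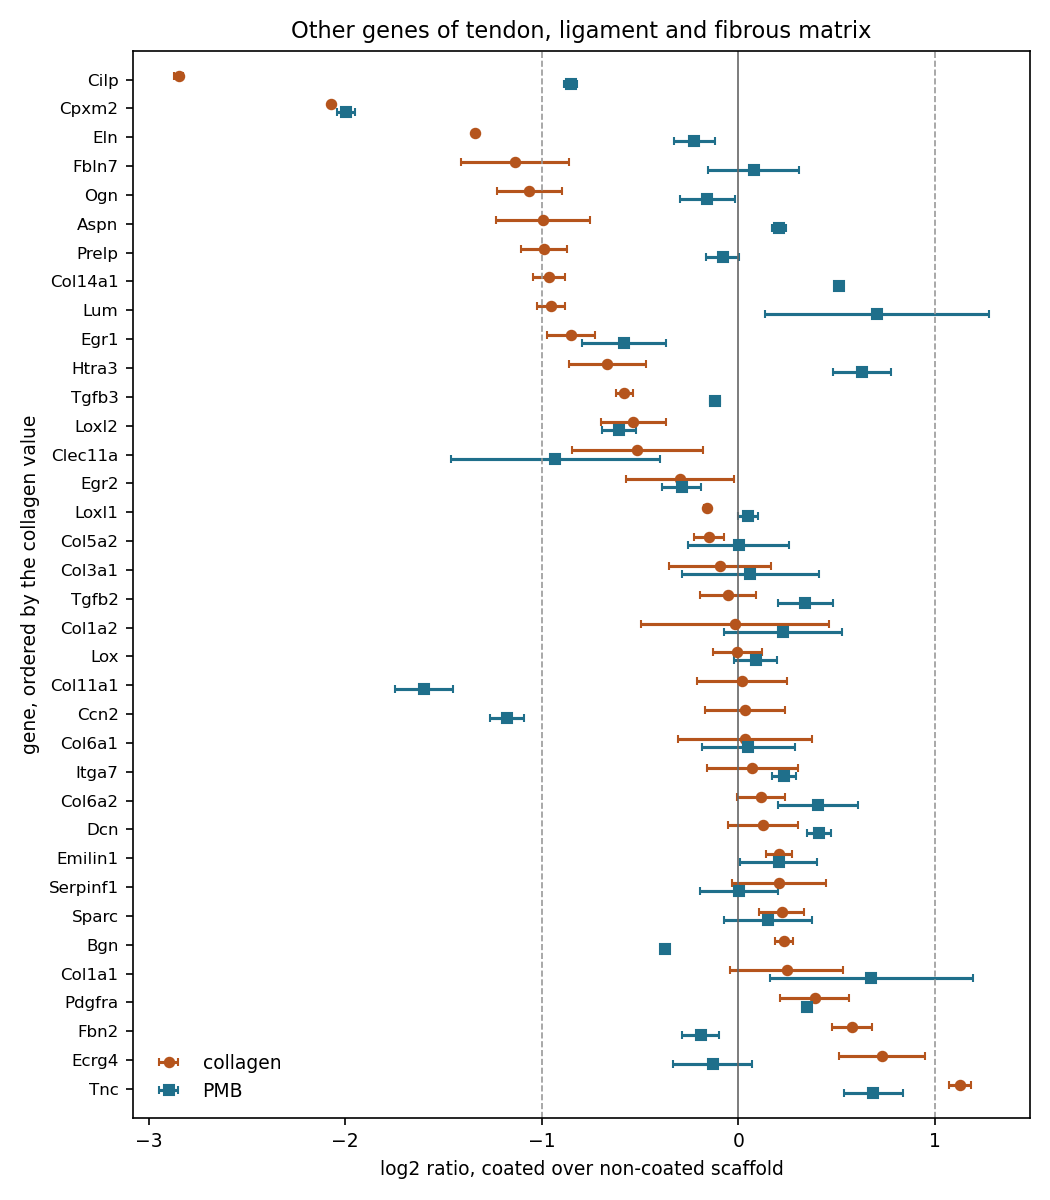
Mean log2 ratio of coated over non-coated scaffold for the 36 measured genes of the list of other tendon, ligament and fibrous matrix genes, ordered by the collagen value. Circles are collagen, squares are PMB, bars are the SD of the 2 arrays and dashed lines mark 2-fold. Cilp, Cpxm2, Eln, Fbln7 and Ogn lie left of the lower line with collagen, and Tnc alone lies right of the upper one.

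The genes whose 4 array values lay nearest to those of each tendon gene were found by Euclidean distance in log2 over the 4 arrays, among all 11842 genes. Nearest to Tnmd was Itgb1bp2, an integrin-binding protein of striated muscle, at a distance of 0.19. Klhl41, a kelch protein of the sarcomere, the small heat shock protein Hspb3, the fast myosin heavy chain Myh1 and Cpxm2 followed at distances of 0.40 to 0.47. Nearest to Thbs4 were Col8a2, a short-chain collagen, and Cilp, at 0.43 and 0.45. The Z-disc protein Myoz2, the skeletal myosin light chain kinase Mylk2 and Hrc, a calcium-binding protein of the sarcoplasmic reticulum, followed at 0.53 to 0.58.
For Scx the nearest genes were the muscle filamin Flnc, the EGF receptor inhibitor Errfi1 and Ogn, at 0.21 to 0.24. For Fmod they were the muscle phosphofructokinase Pfkm, the hydroxylase Asph and Errfi1, at 0.15 to 0.21. For Mkx they were Saa1, an acute-phase protein, the epithelial laminin chain Lama3 and the kinase Cdkl1, at 0.31 to 0.42. Likeness over 4 arrays of 3 extracts is a description of these ratios only.

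Skeletal muscle genes were low at the same scaffolds as Tnmd and Thbs4. Of 35 muscle genes, 32 had values, and 29 were at least 2-fold lower with collagen and 26 with PMB, with medians of -2.75 and -1.69 and ranges of -4.02 to 0.23 and -2.48 to 1.12. The myosin Myh2 was at -4.02 ± 0.011 with collagen, the creatine kinase Ckmt2 at -3.83 ± 0.086, and the sarcomere protein Myot and the calcium buffer Pvalb at -3.79 ± 0.11 and -3.69 ± 0.14. With PMB these 4 genes lay between -2.27 and -1.25. Of the 32, 1 was higher with PMB, the slow troponin Tnnc1 at 1.12 ± 0.041. Muscle genes with values on PMB arrays only went further. The slow myosin Myh7 was at 4.54 and 4.53 on PMB replicates 1 and 2, and its slow light chain Myl2 was at 4.13 on PMB replicate 1. Neither enters the counts, medians and ranges above. With probes measured on both arrays of a coating, 27 muscle genes were lower with PMB and 2 were higher. Tnnc1, Myh7 and Myl2 were named after their values were seen. The part of muscle RNA in the ratios of the tendon genes was not tested.

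Fewer markers of other connective tissue and of fat than of muscle were called lower. Of 17 measured fat cell genes of 20, 4 were lower with collagen and 9 higher with PMB, with medians of -0.54 and 1.04, whereas Tnmd was low with both coatings. Collagen minus PMB was below 0 for all 17 fat cell genes, with a median of -1.69, beside 0.0012 for all genes. Among them Pck1, an enzyme of glyceroneogenesis, was at -1.03 ± 0.12 and 1.77 ± 0.061, and the glucose transporter Slc2a4, also of muscle, was at -1.66 ± 0.087 and 0.19 ± 0.069. Mrap and the lipid droplet protein Cidec were at 1.68 ± 0.21 and 1.68 ± 0.17 with PMB. Of 19 measured fibroblast genes of 20, 1 was lower with collagen, the surface peptidase Dpp4 at -1.44 ± 0.099, and 1 was higher with PMB, Pi16 of adventitial fibroblasts at 1.46 ± 0.25. The fibroblast medians were -0.094 and 0.19.
Of 12 smooth muscle and myofibroblast genes, 2 were lower with both coatings, the tropomyosin Tpm1 at -1.55 ± 0.039 and -1.72 ± 0.020 and desmin (Des) at -1.10 ± 0.12 and -1.58 ± 0.088, both of which skeletal muscle also makes. The 3 probes of Tpm1 disagreed, with means of 0.45, -1.93 and -3.17 with collagen and -0.49, -2.18 and -2.48 with PMB, so its SD between arrays understates its error. The contractile gene Cnn1 was higher with collagen, at 1.97 ± 0.69. Of 16 cartilage genes 6 had values, with Sox6, a partner of Sox9 that muscle also uses, at -2.06 ± 0.27 with collagen, and Col11a2 at 1.03 ± 0.53 with PMB. None of 10 bone genes had values on all arrays.
Of 6 measured Schwann cell and nerve genes, 4 were lower with collagen and none reached 2-fold with PMB, with medians of -1.25 and 0.49. The myelin gene Mbp stood at -2.57 ± 0.031 with collagen but at 0.60 ± 0.041 with PMB, and 1 of its probes was at 0.058 with collagen. S100b, Sox10 and Ngfr lay between -1.36 and -1.14 with collagen. None of 11 measured macrophage genes reached 2-fold with either coating, with medians of 0.082 and -0.14. The part of these cell types in the ratios of the tendon genes was not tested.

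**Figure D5:**
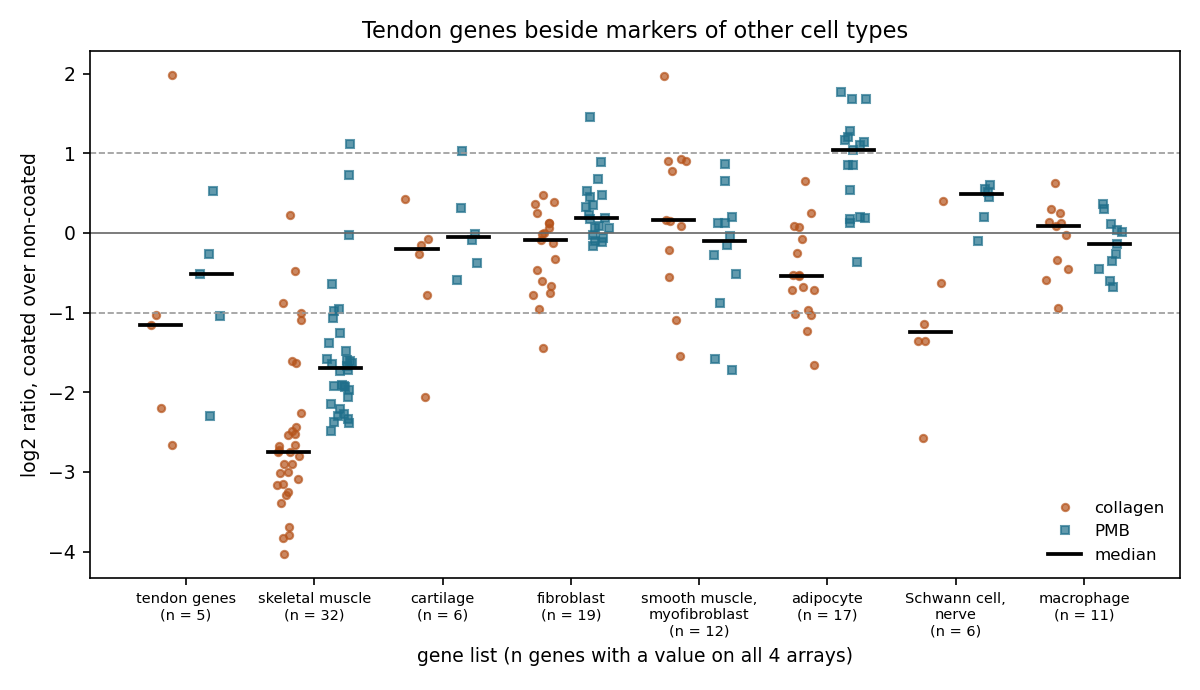
Log2 ratio of coated over non-coated scaffold for each measured gene of the tendon set and of marker lists of other cell types, with circles for collagen, squares for PMB, bars at the median and dashed lines at 2-fold. Points are spread sideways for legibility. The muscle list has the lowest medians, -2.75 with collagen and -1.69 with PMB, and the tendon genes have medians of -1.15 and -0.51, or -1.04 and -0.27 without Tnmd and Thbs4, for which the set was picked.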

How the data were processed

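Tissue at each coated scaffold was set against tissue at the non-coated one on 4 two-colour arrays, 2 for each coating. The deposited values are log2 ratios, Cy5 over Cy3, which the authors made after LOWESS normalization. How scans were combined and which spots were left empty: not given in the sources used here. Replicate 2 carried the coated sample in Cy3, so its sign was reversed. As deposited, replicates 1 and 2 correlated at -0.79 for collagen and -0.66 for PMB across the 22380 probes measured 4 times. No further normalization was applied.

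Of 43377 probes, 33651 had 1 gene symbol in the platform annotation, 56 had several and 9670 were unnamed here. Symbols were updated through Entrez identifiers. Probes with 4 values were averaged within a gene. The 2 arrays of a coating were averaged as 1 replicate, and their number limits the precision. No test was possible with 1 mouse a group.

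The members and the gene lists were chosen with earlier results of these data known. The genes named are the 8 members, every measured relative in 5 families, and up to 4 called genes of each other list, largest first, with the exceptions stated. Alternatives were the probe summary, probes with missing values, array centring and scaling, each array alone and the fold limit. Software was limma 3.58.1 under R 4.3.3, used to scale the arrays, and numpy 2.4.6 with pandas 2.3.3 under Python 3.11.15. Plots were drawn in matplotlib 3.10.9.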

Additional observations from a re-analysis of the deposited data

Results flagged for a closer look

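None of the 5 measured tendon genes had opposite signs on the arrays of the 2 coatings. Of 50 genes named by the rule, 15 lay on one side of 0 on both collagen arrays and on the other side on both PMB arrays. How many of all genes do so was not counted, and part of the 50 were picked for large ratios. Neither count therefore has a share to be read against. The difference between the coatings was not tested, since each scaffold came from 1 mouse. Among relatives of the tendon genes, collagen minus PMB was -1.81 for Omd, -1.66 for Lum, -1.22 for Thbs3, -1.20 for Aspn and 0.60 for Bgn. It was -0.34 for Irx2 and -0.38 for Tcf15. Among marker genes of other cell types it was -3.17 for Mbp, -2.80 for Pck1, -1.92 for Pi16, -1.91 for S100b, -1.85 for Slc2a4, -1.81 for Sox10, -1.76 for Dpp4 and -1.66 for Ngfr.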

How the results depend on the processing

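All 105 recomputed values of the 5 measured tendon genes, over 7 alternatives and 3 comparisons, kept the sign of the value reported. Of these, 4 moved by at least the SD of the 2 arrays, 2 each for Tnmd and Thbs4. Many of the values could not move, so these counts are no measure of robustness. Tnmd, Scx, Mkx and Fmod have 1 probe each, so the alternatives for probes left their values unchanged. A single array always lies within that SD of the mean of both. Thbs4 was at -2.39 with collagen and at -1.21 for collagen minus PMB with the probe of smallest dye difference, and Tnmd was at -2.22 with collagen with the arrays centred or scaled. With each array required to reach 2-fold, 2 tendon genes were lower with collagen, 1 was lower with PMB and 3 other tendon and ligament genes were lower with collagen. Of all 11842 genes, 319 were then lower with collagen and 141 with PMB, beside 400 and 166 by the main call. Without replicate 1 or replicate 2, the lower tendon genes numbered 2 to 4 with collagen and 1 to 2 with PMB. At a limit of 1.5-fold, 2 tendon genes were lower with collagen than with PMB, and 11 other tendon and ligament genes were lower with collagen and 6 with PMB. The counts of all genes rose as well, to 900 lower with collagen and 531 lower with PMB. Of 432 recomputed counts of the other lists, 36 moved by over 1.5 times. No paired analysis was possible because the 2 arrays of a coating are a dye swap of the same extracts, so no result comes from a test. The arrays hold no error between mice.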

Other observations

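A few further genes of tendon, its relatives and bone had values on only some arrays. The fibrillar collagen gene Col5a1 was at -0.014 and 0.35 on collagen replicates 1 and 2 and at 0.13 on PMB replicate 1. The growth factor Gdf5, known from joints and tendon, was at -0.091 on collagen replicate 1 and -0.011 on PMB replicate 1, and Gdf7 was at -0.23 and 0.37 on the same arrays. The homeobox gene Irx5 was at -0.62 on collagen replicate 2 and 0.62 on PMB replicate 1. Ifitm5, a membrane protein of bone-forming cells, was at 0.52 and 0.91 on the collagen arrays and at -0.19 on PMB replicate 1. No call was made for these genes.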
